A study of Mus musculus with 17 samples.

Results

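The genes described here are the core of MHC class II antigen presentation in the mouse: H2-Aa, H2-Ab1, H2-Eb1, Cd74, H2-DMa, H2-DMb1, H2-Oa and Ciita. They were chosen by name, with earlier results of these data known. All 8 were among the 13501 gene symbols of the deposited table, and all 8 were kept by the filter on low values. They were followed across 17 RNA-seq libraries of living (DAPI-negative) CD45+CD11b+ cells sorted from mouse brain. Every level below is a normalized read count, which is the number of reads on the gene divided by a size factor of its library.

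The libraries fell into 5 groups. The first held circulation-derived myeloid cells after bone marrow transplant (BMT) plus PLX5622, with Trem2 knockout donor cells in Trem2 knockout 5xFAD hosts (4 libraries, called knockout-donor transplants). The second held the same kind of cells with Trem2 wild-type donor cells, again in Trem2 knockout 5xFAD hosts (4 libraries, called wild-type-donor transplants). The untreated groups were labelled microglia: from Trem2 knockout 5xFAD mice (3 libraries), from Trem2 wild-type 5xFAD mice (3 libraries) and from wild-type mice without 5xFAD, called normal (3 libraries). 5xFAD mice carry transgenes that give amyloid deposits in the brain, Trem2 is a lipid-sensing receptor of myeloid cells, and PLX5622 blocks the receptor CSF1R and depletes microglia. Donor genotype could be compared between the transplants, and knockout with wild type between the 5xFAD microglia. Cell origin and treatment changed together, so that they cannot be told apart here, and no transplant was made into a wild-type host. The labels give no age, sex or strain, and do not say that each library is a separate animal, so p-values measure the spread between these libraries.

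MHC class II molecules show peptides from taken-up proteins to CD4 T cells. H2-Aa and H2-Ab1 encode the alpha and beta chains of the I-A molecule, and H2-Eb1 the beta chain of I-E. H2-Ea, the alpha chain of I-E, is not in the table, so H2-Eb1 describes a transcript and not the I-E molecule. The invariant chain Cd74 fills the groove of new class II molecules and guides them to endosomes. There H2-DM, made of H2-DMa and H2-DMb1 or H2-DMb2, exchanges the last piece of Cd74 for peptide, and H2-O, made of H2-Oa and H2-Ob, restrains H2-DM. Ciita encodes the coactivator that switches class II genes on, and interferon gamma is its best known inducer. Resting microglia are known for low class II levels, and border macrophages and dendritic cells for higher ones.

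The class II coactivator works through factors bound to short elements in the promoters, the X box and, downstream of it, the Y box, whose core reads ATTGG. RefSeq promoters on GRCm38.p6, from 250 bases before to 50 bases after each start, were found for H2-Aa, H2-Eb1, H2-DMa, H2-DMb1 and H2-Oa. They were searched on both strands for GNAAC followed by ATTGG with 27 or 28 bases between, a pattern set after these promoters had been read. ATTGG and GNAAC do not overlap in it. H2-Aa, H2-Eb1, H2-DMb1 and H2-Oa held it, and neither of the 2 listed promoters of H2-DMa did. The stretches of 3 of them are printed because H2-Oa, which moves against the others below, holds the same pair of elements as H2-Aa and H2-Eb1. Capitals mark GNAAC and ATTGG, and each stretch is written in the direction of its gene.
H2-Aa, minus strand of chr17:34287867-34287934: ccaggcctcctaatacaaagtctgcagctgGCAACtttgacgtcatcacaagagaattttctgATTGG
H2-Eb1, plus strand of chr17:34305746-34305812: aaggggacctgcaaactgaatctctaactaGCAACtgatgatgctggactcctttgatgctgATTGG
H2-Oa, plus strand of chr17:34092273-34092340: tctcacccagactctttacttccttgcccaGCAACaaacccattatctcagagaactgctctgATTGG
The spacing was 28 bases in H2-Aa and H2-Oa and 27 in H2-Eb1. GNAAC lay 81, 91 and 76 bases before the start in H2-Aa, H2-Eb1 and H2-Oa. Among 32851 promoters of the same length 84.8% held GNAAC, 37.4% held ATTGG and 0.39% held the pair at this spacing. A match is a description of letters and not a shown site of binding.

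Each library held between 16044078 and 30606394 recovered reads (median 19254498). Trem2 followed the labels in every library, at 3962 to 5965 in knockout cells and 31205 to 53908 in wild-type cells. The sort markers Ptprc, Itgam, Csf1r, Aif1 and Tyrobp summed to 225879 or more in every library. Summed microglia markers reached 411290 to 493648 in the transplants and 780442 to 984228 in the microglia groups. Libraries S30 and S31 (wild-type-donor transplants), S22 and S23 (wild-type 5xFAD microglia) and S25 and S27 (knockout 5xFAD microglia) lay closer together than the other pairs of their groups. Their chi-square per degree of freedom was 4.92, 6.11 and 9.61, against 13.07 to 129.83 for the rest. If a pair came from 1 animal, the standard errors are too small. S30 and S31 also stood apart from S28 and S29, with summed oligodendrocyte markers of 23985 and 24195 against 7062 and 11096.

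The 8 genes took 1.54% to 1.92% of all reads in knockout-donor transplants and 1.19% to 2.18% in wild-type-donor transplants. In microglia they took 0.547% to 0.748% with Trem2 knockout and 5xFAD, 0.338% to 0.35% with wild-type Trem2 and 5xFAD, and 0.697% to 0.73% in normal mice. Wild-type 5xFAD microglia were thus lowest, knockout 5xFAD and normal microglia overlapped, and every transplant library was above every microglia library. In bulk samples, fewer cells that express a gene and less RNA per cell cannot be told apart.

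**Figure D1:**
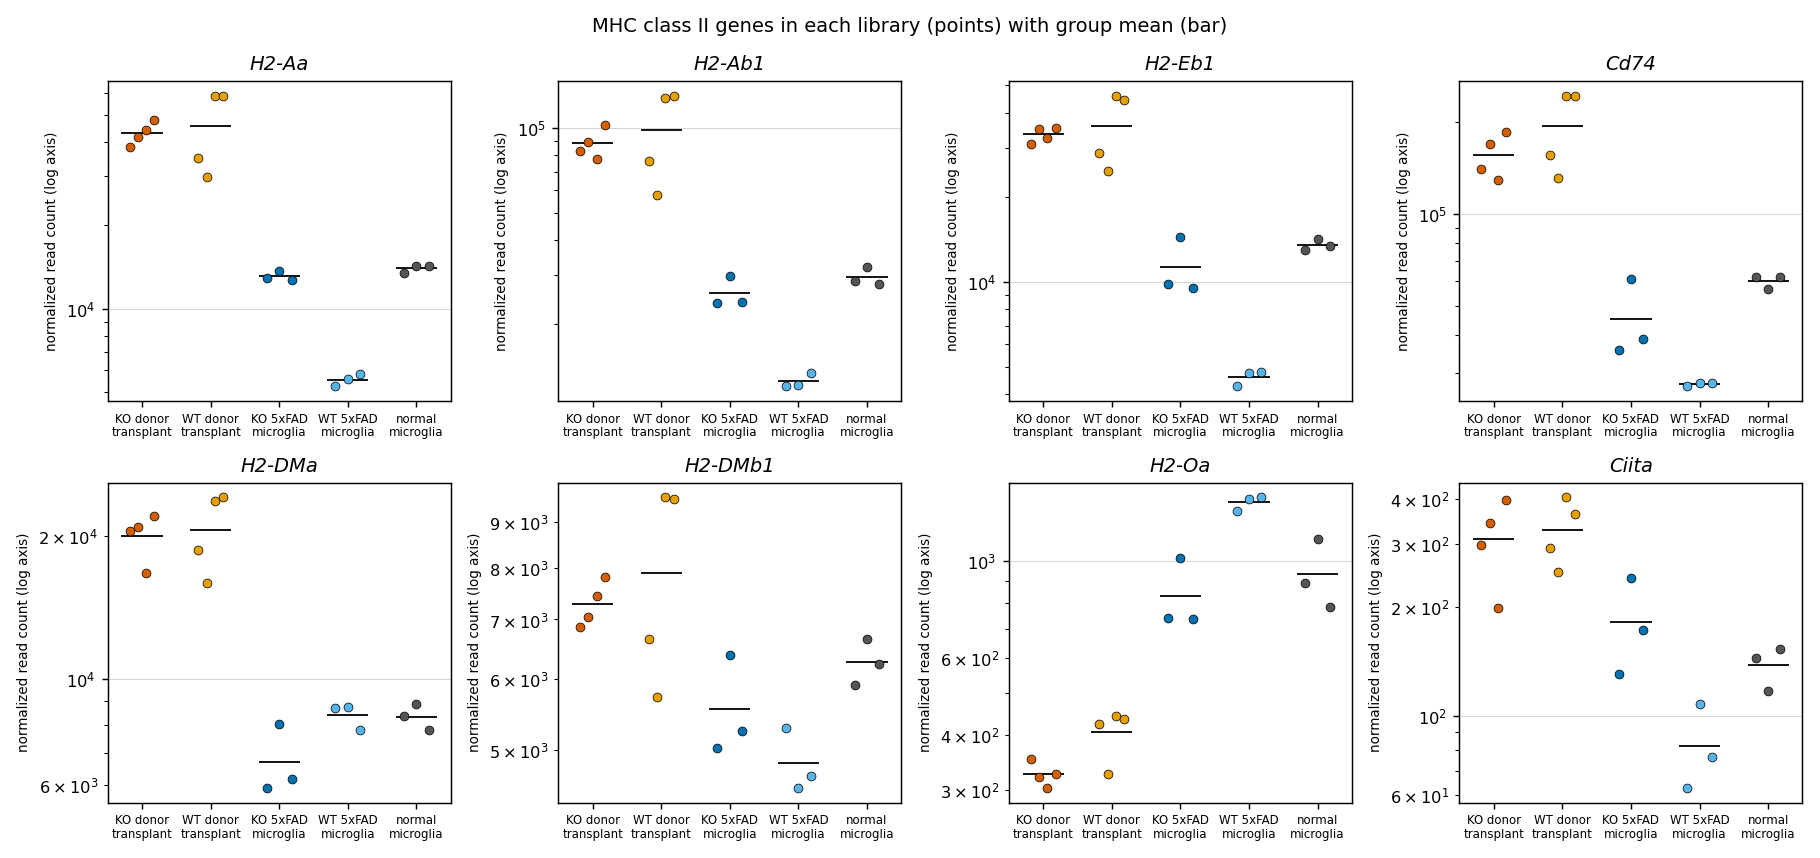
Normalized read counts (log axis) of the 8 genes in each library (points) with the group mean (bar), for the 5 groups. The transplant libraries sit above the microglia libraries for H2-Aa, H2-Ab1, H2-Eb1, Cd74 and H2-DMa, below them for H2-Oa, and S30 and S31 sit above S28 and S29.

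H2-Aa (chromosome 17, 34282744 to 34287823, GRCm38) had 38178, 41476, 44153 and 47660 reads in knockout-donor transplants (S32, S33, S34, S35) and 34962, 29930, 58215 and 58564 in wild-type-donor transplants (S28, S29, S30, S31). It had 12913, 13675 and 12646 in knockout 5xFAD microglia (S25, S26, S27), 5258, 5609 and 5815 in wild-type 5xFAD microglia (S22, S23, S24) and 13414, 14249 and 14286 in normal microglia (S20, S21, S36). The transplants did not overlap any microglia group, and wild-type 5xFAD microglia lay below both other microglia groups. H2-Ab1 (chromosome 17, 34257689 to 34269419) had 82761, 89451, 77905 and 103186 in knockout-donor transplants and 76672, 57898, 128855 and 130976 in wild-type-donor transplants, with the libraries in the same order. Its counts were 23777, 29763 and 23993 in knockout 5xFAD microglia, 11951, 12056 and 13340 in wild-type 5xFAD microglia, and 28352, 31889 and 27761 in normal microglia. The order of the groups was that of H2-Aa, and knockout 5xFAD and normal microglia overlapped.

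H2-Eb1 (chromosome 17, 34305867 to 34316674) had 30898, 35104, 32385 and 35364 in knockout-donor transplants and 28676, 24714, 45962 and 44447 in wild-type-donor transplants. It had 9821, 14412 and 9543 in knockout 5xFAD microglia, 4257, 4730 and 4769 in wild-type 5xFAD microglia, and 12947, 14266 and 13445 in normal microglia. S26 was higher than S25 and S27, and it alone of the knockout libraries reached the normal ones. S30 and S31 had the highest levels of all 3 classical genes, so that the wild-type-donor group spread 1.96-fold for H2-Aa, 2.26-fold for H2-Ab1 and 1.86-fold for H2-Eb1 between its lowest and highest library. The knockout-donor group spread 1.25-fold, 1.32-fold and 1.15-fold for the same genes.

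Cd74 (chromosome 18, 60803848 to 60812652), the invariant chain, had 140611, 169419, 128772 and 185989 reads in knockout-donor transplants and 156301, 130862, 244051 and 244423 in wild-type-donor transplants. It had 35853, 61031 and 38869 in knockout 5xFAD microglia, 27144, 27772 and 27895 in wild-type 5xFAD microglia, and 61872, 56790 and 62116 in normal microglia. Of the knockout 5xFAD libraries S26 lay within the range of normal microglia, and S25 and S27 lay between normal and wild-type 5xFAD microglia. Per kilobase of its main annotated transcript, Cd74 had the highest level of the 8 genes in every group, at 110778 ± 18573 (SD, n = 4) in knockout-donor transplants and 19577 ± 286 (n = 3) in wild-type 5xFAD microglia.

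H2-DMa (chromosome 17, 34119541 to 34139101), the alpha chain of H2-DM, had 20469, 20946, 16701 and 22029 in knockout-donor transplants and 18723, 15915, 23678 and 24157 in wild-type-donor transplants. In microglia it had 5908, 8050 and 6163 with knockout and 5xFAD, 8721, 8748 and 7814 with wild-type Trem2 and 5xFAD, and 8377, 8870 and 7816 in normal mice. Unlike the classical genes, it was not low in wild-type 5xFAD microglia, which overlapped both other microglia groups. H2-DMb1 (chromosome 17, 34153072 to 34160230), the beta chain, had 6868, 7042, 7435 and 7808 in knockout-donor transplants and 6652, 5737, 9593 and 9558 in wild-type-donor transplants. Its counts were 5019, 6388 and 5256 in knockout 5xFAD microglia, 5294, 4532 and 4674 in wild-type 5xFAD microglia, and 5918, 6661 and 6241 in normal microglia. Its groups lay closest together of the 8 genes, and wild-type-donor transplants overlapped knockout 5xFAD and normal microglia. Exons of H2-DMa share 360 bases with those of Brd2 on the other strand. The library kit is not stated to keep strand, so some reads on H2-DMa may be from Brd2.

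H2-Oa (chromosome 17, 34092340 to 34095234), the alpha chain of the H2-DM inhibitor H2-O, ran the other way. It had 352, 320, 303 and 326 reads in knockout-donor transplants and 424, 325, 442 and 434 in wild-type-donor transplants. In knockout 5xFAD microglia it had 740, 1015 and 736, in wild-type 5xFAD microglia 1302, 1384 and 1399, and in normal microglia 889, 1125 and 784. Wild-type 5xFAD microglia were highest, every transplant library was below every microglia library, and knockout 5xFAD and normal microglia overlapped. Its exons share 321 bases with BC051537, an antisense gene that is not in the table.

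Ciita (chromosome 16, 10480059 to 10528418), the class II coactivator, was the lowest of the 8 genes. It had 298, 343, 199 and 398 reads in knockout-donor transplants and 292, 250, 405 and 363 in wild-type-donor transplants. It had 131, 242 and 173 in knockout 5xFAD microglia, 62.9, 108 and 76.8 in wild-type 5xFAD microglia, and 145, 117 and 153 in normal microglia. Wild-type 5xFAD microglia lay below all other groups, and S26 overlapped the lowest knockout-donor transplant, S34. Exons of Ciita share 329 bases with Dexi on the other strand. As with H2-DMa and Brd2, some reads on Ciita may be from Dexi, and Ciita has few reads.

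Differences between groups are given on the log2(value + 1) scale with the standard error (SE) of a limma model over all 12074 tested genes, and a call means an adjusted p (Benjamini-Hochberg, over all of these genes) under 0.05. The first question was how microglia with wild-type Trem2 differ between 5xFAD and normal mice. The classical genes and Cd74 were lower in 5xFAD: 4 of the 8 genes were called lower and 0 higher, where 0.952% of all tested genes were called lower and 2.83% higher. H2-Eb1 fell by 1.56 (SE 0.2, adjusted p = 0.000103), H2-Aa by 1.33 (SE 0.2, adjusted p = 0.00036), H2-Ab1 by 1.24 (SE 0.23, adjusted p = 0.00365) and Cd74 by 1.13 (SE 0.23, adjusted p = 0.0078). In linear terms H2-Eb1 was 2.96-fold and H2-Aa 2.52-fold lower. These groups did not overlap for any of the 4 genes.

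The other members did not pass in this comparison. Ciita stood at -0.76 (adjusted p = 0.178) and H2-DMb1 at -0.38 (adjusted p = 0.26), both without overlap of the groups. H2-DMa stood at 0.01 (95% interval -0.32 to 0.35). H2-Oa stood at 0.56 (adjusted p = 0.0708), with all wild-type 5xFAD libraries above all normal ones, and it passed without S21 (0.70, adjusted p = 0.0375) or without S26 (0.56, adjusted p = 0.0264). DESeq2 on the recovered reads also called it (0.54, adjusted p = 0.0247). The median of the 8 genes was -0.94, and that of all tested genes 0.00.

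In knockout 5xFAD against normal microglia, which use the same normal libraries, 0 of the 8 genes were called by limma, edgeR or DESeq2, and 0 had an unadjusted p under 0.05. Of all tested genes 2.7% were called higher and 1.21% lower. The differences were -0.10 for H2-Aa (95% interval -0.51 to 0.32), -0.19 for H2-Ab1 (-0.68 to 0.30), -0.29 for H2-Eb1 (-0.71 to 0.13) and -0.45 for Cd74 (-0.94 to 0.04). The groups overlapped for all 8 genes. Without S26, Cd74 fell by 0.69 (adjusted p = 0.0223) and H2-DMa by 0.47 (adjusted p = 0.0261).

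The next comparison was Trem2 knockout against wild type within 5xFAD microglia; it shares its libraries with the 2 comparisons above. The classical genes and Ciita were higher in knockout and H2-Oa was lower: 4 genes were called higher and 1 lower, against 2.5% and 2.59% of all tested genes. H2-Eb1 rose by 1.27 (SE 0.2, adjusted p = 0.000678), H2-Aa by 1.23 (SE 0.2, adjusted p = 0.000737), Ciita by 1.12 (SE 0.29, adjusted p = 0.0296) and H2-Ab1 by 1.05 (SE 0.23, adjusted p = 0.012). H2-Oa fell by 0.73 (SE 0.17, adjusted p = 0.0141). None of these 5 genes had overlapping groups. Cd74 stood at 0.67 (adjusted p = 0.109), also without overlap, and passed with DESeq2 (0.71, adjusted p = 0.0305). H2-DMa stood at -0.34 (adjusted p = 0.217) and passed without S26 (-0.48, adjusted p = 0.0286). H2-DMb1 stood at 0.20 (95% interval -0.15 to 0.54).

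The calls of H2-Aa and H2-Eb1 stayed when any 1 library was left out, and those of the other 3 genes did not. H2-Ab1 lost its call without S22 (1.02, adjusted p = 0.0569) or S23 (1.03, adjusted p = 0.0535). Ciita lost it without S22 (0.95, adjusted p = 0.15), S24 (1.09, adjusted p = 0.099) or S27 (1.13, adjusted p = 0.0902). H2-Oa lost it without S23 (-0.72, adjusted p = 0.0612), S24 (-0.71, adjusted p = 0.0612), S25 (-0.65, adjusted p = 0.0792) or S27 (-0.65, adjusted p = 0.0811). With each closest pair of libraries averaged into 1, only the calls of H2-Aa and H2-Eb1 were left.

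**Figure D2:**
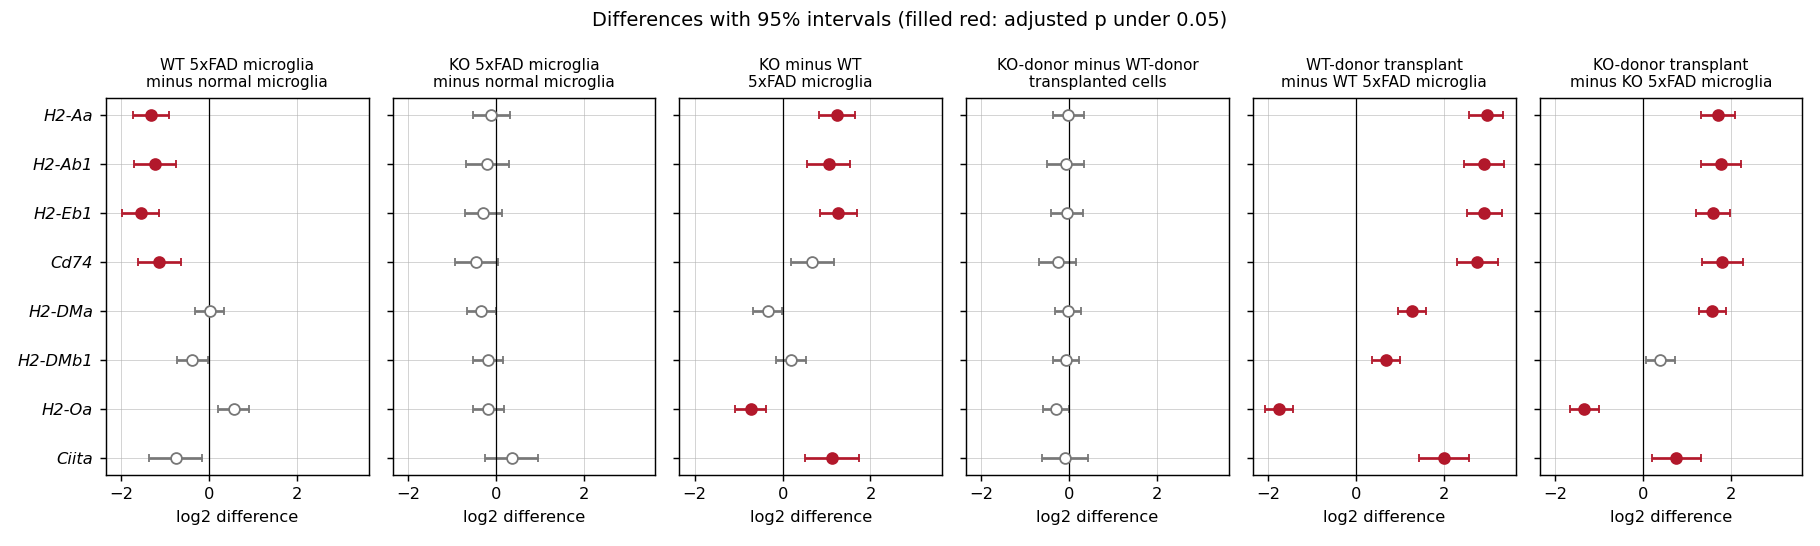
Log2 differences of the 8 genes in 6 comparisons (points) with 95% intervals (bars), filled red where the adjusted p was under 0.05. H2-Oa lies opposite to the classical genes in the comparisons of wild-type-donor and knockout-donor transplants with microglia, and no gene is called between the donor genotypes.

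Transplanted cells were set against microglia of their own Trem2 genotype. In wild-type-donor transplants against wild-type 5xFAD microglia 7 genes were higher and 1, H2-Oa, was lower, where 13.6% and 14.6% of all tested genes were called higher and lower. H2-Aa rose by 2.97 (SE 0.18, adjusted p = 8.66e-10), or 7.82-fold, H2-Eb1 by 2.92, H2-Ab1 by 2.90 and Cd74 by 2.76. Ciita rose by 1.99 (SE 0.27, adjusted p = 1.86e-05), H2-DMa by 1.27 (SE 0.15, adjusted p = 2.93e-06) and H2-DMb1 by 0.67 (SE 0.15, adjusted p = 0.00289). H2-Oa fell by 1.75 (SE 0.15, adjusted p = 8.42e-08), a 3.37-fold lower level. The groups did not overlap for any of the 8 genes. Without both S30 and S31 the classical genes stood at 2.42 to 2.54, H2-Oa at -1.87, and the call of H2-DMb1 ended (0.36, adjusted p = 0.0632).

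In knockout-donor transplants against knockout 5xFAD microglia 6 genes were higher and 1 was lower, against 11.7% and 13.7% of all tested genes. Cd74 rose by 1.81, H2-Ab1 by 1.77, H2-Aa by 1.71 (SE 0.18, adjusted p = 1.38e-06), H2-Eb1 by 1.59 and H2-DMa by 1.58 (SE 0.15, adjusted p = 2.58e-07). H2-Oa fell by 1.33 (SE 0.15, adjusted p = 3.43e-06). H2-DMb1 stood at 0.40 (adjusted p = 0.0674) with no overlap, and passed without S26 (0.50, adjusted p = 0.022) or S29 (0.40, adjusted p = 0.0323). Ciita rose by 0.76 (adjusted p = 0.0456), but its groups overlapped. Its call ended without any 1 of 11 libraries (S20, S21, S24, S25, S27, S28, S31, S32, S33, S35 and S36), and without S25 it stood at 0.55 (adjusted p = 0.224).

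The same wild-type-donor transplants were also set against knockout 5xFAD and normal microglia. Against knockout 5xFAD microglia, the Trem2 genotype of the host, 7 genes were higher and H2-Oa was lower, where 17.3% and 17.8% of all genes were called. Cd74 rose by 2.09, H2-Ab1 by 1.86, H2-Aa by 1.73, H2-Eb1 by 1.65 and H2-DMa by 1.61, and H2-Oa fell by 1.02 (adjusted p = 6.26e-05). The calls of Ciita (0.87, adjusted p = 0.0194) and H2-DMb1 (0.48, adjusted p = 0.023) did not hold without 1 library. Ciita lost its call without S25 (0.65, adjusted p = 0.12), S27 (0.85, adjusted p = 0.0566) or S30 (0.76, adjusted p = 0.0591). H2-DMb1 lost it without S25 (0.41, adjusted p = 0.105), S27 (0.44, adjusted p = 0.0806), S30 (0.37, adjusted p = 0.0781) or S31 (0.37, adjusted p = 0.0774), and stood at 0.16 (adjusted p = 0.378) without both S30 and S31. Against normal microglia 6 genes were higher and H2-Oa was lower by 1.19, where 16.1% and 14.3% of all genes were called. H2-Ab1 rose by 1.67, H2-Aa by 1.64, Cd74 by 1.63, H2-Eb1 by 1.36, H2-DMa by 1.28 and Ciita by 1.22. H2-DMb1 stood at 0.30 (adjusted p = 0.162), and passed without S29 (0.44, adjusted p = 0.0254).

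Between knockout-donor and wild-type-donor transplants 0 of the 8 genes were called by limma, edgeR or DESeq2, where 2.99% of all tested genes were called higher and 3.75% lower. H2-Oa was the 1 gene with an unadjusted p under 0.05 in the limma model, with a difference of -0.31 (95% interval -0.61 to -0.01, adjusted p = 0.173). The differences were -0.02 for H2-Aa (95% interval -0.38 to 0.33), -0.08 for H2-Ab1 (-0.51 to 0.34), -0.06 for H2-Eb1 (-0.42 to 0.31), -0.27 for Cd74 (-0.70 to 0.15) and -0.10 for Ciita (-0.63 to 0.43). All 8 genes had overlapping groups. Without S30 and S31, 7 differences changed sign and stood between 0.11 (Cd74) and 0.40 (H2-Aa and H2-Ab1), all short of the threshold, so their direction rests on those 2 libraries.

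Whether the knockout effect differed between transplants and microglia was tested as an interaction, the difference of the 2 effects. It was called for H2-Eb1 at -1.33 (SE 0.26, adjusted p = 0.00879) and H2-Aa at -1.26 (SE 0.26, adjusted p = 0.0109), that is 0 genes higher and 2 lower, where 0.87% and 1.95% of all tested genes were called. An unadjusted p under 0.05 was reached by 5 members, and edgeR called 3 and DESeq2 5. H2-Eb1 stood at -0.06 between the transplants and at 1.27 between the microglia groups. Ciita stood at -1.22 (adjusted p = 0.091), H2-Ab1 at -1.13 (adjusted p = 0.0562) and Cd74 at -0.95 (adjusted p = 0.107). H2-Ab1 passed without S26 (-1.02, adjusted p = 0.04), S28 (-1.22, adjusted p = 0.0337) or S29 (-1.36, adjusted p = 0.00618), and Cd74 without S29 (-1.12, adjusted p = 0.0413). With the closest library pairs averaged, neither H2-Aa (-1.12, adjusted p = 0.137) nor H2-Eb1 (-1.28, adjusted p = 0.0838) passed. Without S25 and S27, which leaves only S26 of the knockout 5xFAD libraries, H2-Aa stood at -1.32. Without S30 and S31 both H2-Aa and H2-Eb1 passed, at -0.83 and -0.94.

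The balance of the genes also differed between groups, as ratios of levels per kilobase. H2-Oa over summed H2-DMa and H2-DMb1 was 0.0159 to 0.0188 in knockout-donor and 0.0187 to 0.0243 in wild-type-donor transplants. It was 0.0907 to 0.0991 in knockout 5xFAD, 0.133 to 0.16 in wild-type 5xFAD and 0.0787 to 0.102 in normal microglia. Summed H2-DM over the summed classical genes was 0.125 to 0.143 in knockout-donor and 0.114 to 0.154 in wild-type-donor transplants, 0.193 to 0.208 in knockout 5xFAD, 0.423 to 0.529 in wild-type 5xFAD and 0.21 to 0.215 in normal microglia. Both ratios were thus lowest in the transplants and highest in wild-type 5xFAD microglia, without overlap with the other groups. H2-Aa over H2-Ab1 ran from 0.468 to 0.609 over all libraries, so the 2 chains of I-A kept near the same ratio. These ratios describe the members and were not tested.

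**Figure D3:**
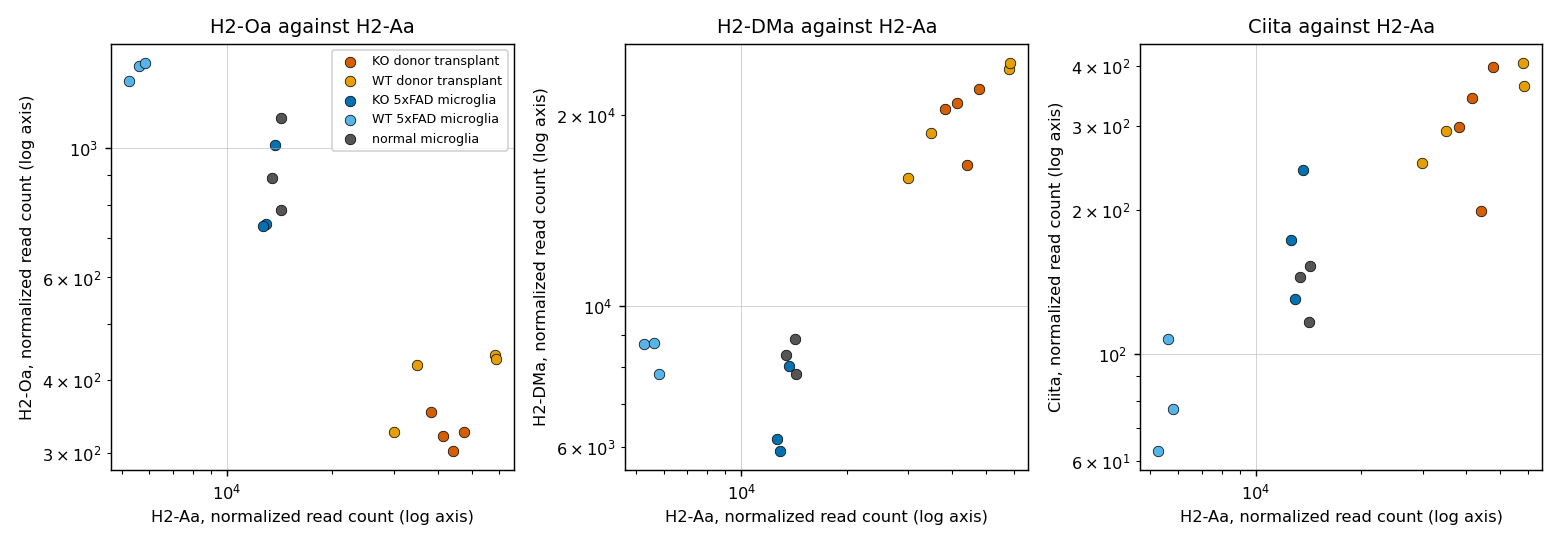
H2-Oa, H2-DMa and Ciita against H2-Aa, as normalized read counts per library on log axes, coloured by group. H2-Oa is highest where H2-Aa is lowest, H2-DMa is near level across the microglia groups, and Ciita is higher in the transplants than in wild-type 5xFAD microglia.

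Among the other class II genes H2-DMb2, a second beta chain of H2-DM, had 1047 to 1291 reads in knockout-donor transplants and 882 to 1239 in wild-type-donor transplants. It had 423 to 540 in knockout 5xFAD, 309 to 409 in wild-type 5xFAD and 443 to 606 in normal microglia. It rose by 1.51 in wild-type-donor transplants against wild-type 5xFAD microglia (adjusted p = 6.99e-07) and by 1.32 in knockout-donor transplants against knockout 5xFAD microglia (adjusted p = 4.35e-06). It is closely related in sequence to H2-DMb1, and how the authors' counting split shared reads is not known here. H2-Ob, the partner chain of H2-Oa, had 1105 to 1287 in knockout-donor and 1048 to 1120 in wild-type-donor transplants, 1092 to 1201 in knockout 5xFAD, 1548 to 1681 in wild-type 5xFAD and 1023 to 1376 in normal microglia. Like H2-Oa, it was highest in wild-type 5xFAD microglia, 0.44 above normal (adjusted p = 0.0405), and it fell by 0.52 in knockout 5xFAD microglia (adjusted p = 0.0116). In the transplants it fell by 0.57 in wild-type-donor cells against wild-type 5xFAD microglia (adjusted p = 0.000613), and stood at 0.07 in knockout-donor cells against knockout 5xFAD microglia (adjusted p = 0.681), where H2-Oa fell.

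The factors that place Ciita on class II promoters, Rfx5, Rfxap, Rfxank, Nfya, Nfyb, Nfyc and Creb1, showed few calls. Of these 7 genes, 0 were called by limma in 7 of the 9 comparisons, where 0 to 3 of them had an unadjusted p under 0.05. Of all tested genes, 0.87% to 17.8% were called in a given direction over the 9 comparisons. Creb1 fell by 0.70 in wild-type-donor transplants against knockout 5xFAD microglia and Nfya by 0.88 against normal microglia. Their median difference lay between -0.20 and 0.13, with the median of all tested genes between -0.05 and 0.03. Of 10 genes of interferon gamma signalling, Irf1, a transcription factor that activates Ciita, rose in wild-type-donor transplants against wild-type 5xFAD microglia (0.57, adjusted p = 0.00259) and in knockout-donor transplants against knockout 5xFAD microglia (0.67, adjusted p = 0.000673). In wild-type-donor transplants against wild-type 5xFAD microglia Jak1 and Jak2 fell, by 0.43 and 0.61. Of the 10 genes, 4 had an unadjusted p under 0.05 by limma in this comparison. In knockout-donor transplants against knockout 5xFAD microglia 3 did. The shares of all tested genes called higher and lower were 13.6% and 14.6% in the wild-type comparison, and 11.7% and 13.7% in the knockout comparison. Those shares use the adjusted p, so the counts at an unadjusted p cannot be set against them. Ifng itself had 9.33 to 66.0 reads in knockout-donor and 0 to 24.4 in wild-type-donor transplants. It had at most 4.11 in any microglia library.

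Of 8 genes that cut Cd74 and antigens or control that step, 1 rose and 4 fell in wild-type-donor transplants against wild-type 5xFAD microglia (median -0.21, all tested genes -0.03), where 13.6% and 14.6% of all tested genes rose and fell. Ifi30, a thiol reductase of endosomes, rose by 0.91. Ctsl, a cysteine protease, fell by 2.25 and Cst3, its inhibitor, by 1.10, and Lgmn fell by 0.39. In knockout-donor transplants against knockout 5xFAD microglia Ctsl fell by 1.99 and Cst3 by 1.19, and 0 of the 8 rose, against 11.7% of all tested genes. In wild-type 5xFAD against normal microglia Ctsb (0.91), Ctsd (0.84) and Ctsl (0.72) rose while the classical genes and Cd74 fell.

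Class II works with costimulation. Cd40, the receptor for the T cell ligand CD154, had 510, 605, 764 and 461 reads in knockout-donor transplants and 758, 794, 996 and 1092 in wild-type-donor transplants. It had 85.3, 85.4 and 88.9 in knockout 5xFAD, 46.2, 40.7 and 67.1 in wild-type 5xFAD and 81.4, 166 and 128 in normal microglia. Every transplant library was above every microglia library. Cd40 rose by 4.14 in wild-type-donor transplants against wild-type 5xFAD microglia (adjusted p = 5.06e-10) and by 2.72 in knockout-donor transplants against knockout 5xFAD microglia (adjusted p = 1.67e-07). It fell by 1.24 in wild-type 5xFAD against normal microglia (adjusted p = 0.0091), and its interaction was -1.42 (adjusted p = 0.0324), both the direction of H2-Aa. Other genes of the list went otherwise: Cd274, the ligand PD-L1, rose by 1.86 and Cd83 by 1.20 in wild-type 5xFAD against normal microglia, and fell by 1.16 and 0.91 in knockout against wild-type 5xFAD microglia. Of the 7 tested costimulation genes, 2 rose and 1 fell in wild-type-donor transplants against wild-type 5xFAD microglia (median -0.09), against 13.6% and 14.6% of all tested genes, so that 1 of 7 lower is near the share over all genes.

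The genes of MHC class I presentation did not follow the class II genes in microglia. Of 10 genes, including H2-K1, H2-D1 and the class I coactivator Nlrc5, 1 rose in wild-type 5xFAD against normal microglia (H2-D1 by 0.78, adjusted p = 0.0132) and 0 fell. Of all tested genes 2.83% rose and 0.952% fell there. In knockout against wild-type 5xFAD microglia 0 were called by limma and 2 had an unadjusted p under 0.05, with a median of -0.35 (all tested genes -0.01). Of all tested genes 2.5% were called higher and 2.59% lower in that comparison. In wild-type-donor transplants against wild-type 5xFAD microglia 6 rose, among them Psmb9 (0.83), H2-K1 (0.93), Psmb8 (0.65) and H2-D1 (0.73), and Erap1 fell, where 13.6% and 14.6% of all tested genes rose and fell. In knockout-donor transplants against knockout 5xFAD microglia 7 rose, against 11.7% of all tested genes, with H2-K1 at 1.11 and Nlrc5 at 1.28. The list of the Cd74 ligand Mif, the partners Cd44, Cxcr4 and Cxcr2, and the related receptor Ackr3 went both ways. In wild-type-donor transplants against wild-type 5xFAD microglia Cxcr4 rose by 3.54, Cd44 by 2.08 and Cxcr2 by 1.88, Ackr3 fell by 3.11, and Mif stood at -0.12 (adjusted p = 0.765). In knockout-donor transplants against knockout 5xFAD microglia Cxcr4 rose by 3.51 and Cd44 by 0.74, and Cxcr2 fell by 2.37 and Ackr3 by 4.71. Cxcr2 is also on the list of neutrophil markers below. It had 174 to 270 reads in knockout 5xFAD and 7.53 to 18.9 in wild-type 5xFAD microglia.

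Markers of other cells also differed between the groups, and not all of them in the order of the class II genes. The summed 11 border-associated macrophage markers, with Mrc1, Pf4 and Ms4a7 among them, ran from 50060 to 59117 in knockout-donor and 58523 to 74677 in wild-type-donor transplants. They ran from 15587 to 23145 in knockout 5xFAD, 12936 to 14652 in wild-type 5xFAD and 18082 to 28233 in normal microglia, so that the sum was lowest in wild-type 5xFAD microglia and highest in the transplants. Stab1, Ms4a7 and Mrc1 hold most of that sum. The mean log2 level of the 11 markers, which weights them equally, was 9.65 to 9.98 in knockout-donor and 9.75 to 10.80 in wild-type-donor transplants, 9.67 to 9.98 in knockout 5xFAD, 9.06 to 9.20 in wild-type 5xFAD and 9.84 to 10.55 in normal microglia. By this measure wild-type 5xFAD microglia were lowest, and the transplants overlapped the other microglia groups. Of the 11, 8 rose and 1 fell in wild-type-donor transplants against wild-type 5xFAD microglia (13.6% and 14.6% of all tested genes). In knockout-donor transplants against knockout 5xFAD microglia 4 rose and 3 fell (11.7% and 13.7% of all tested genes). In wild-type 5xFAD against normal microglia 0 rose and 4 fell (2.83% and 0.952% of all tested genes). In knockout against wild-type 5xFAD microglia 3 rose and 0 fell (2.5% and 2.59% of all tested genes). Cd163, a scavenger receptor, ran against the sum, and fell by 2.64 in wild-type-donor and by 2.54 in knockout-donor transplants against microglia of their own genotype. Pf4, a platelet factor also made by border macrophages, fell by 1.35 in wild-type 5xFAD against normal microglia and rose by 1.06 in knockout against wild-type 5xFAD microglia. S26, which was high for the class II genes among the knockout 5xFAD libraries, was also the highest of them for this sum. The part of these cells in the class II differences was not tested.

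Neutrophil markers (9 of 10 in the table) summed to 107544, 41385 and 116022 in knockout 5xFAD microglia (S25, S26, S27), against 3739 to 4834 in wild-type 5xFAD and 8019 to 16950 in normal microglia. They summed to 8410 to 26897 in knockout-donor and 11754 to 17576 in wild-type-donor transplants. S26, the highest library of its group for all 8 class II genes, had the lowest neutrophil sum of the group. Monocyte markers summed to 7289 to 18204 in knockout 5xFAD and 1886 to 2093 in wild-type 5xFAD microglia, and to 2569 to 5492 in knockout-donor and 2681 to 4702 in wild-type-donor transplants. All 9 tested neutrophil markers and 8 of 9 tested monocyte markers rose in knockout against wild-type 5xFAD microglia, against 2.5% of all tested genes. The classical genes and Ciita rose in the same comparison. The part of neutrophils and monocytes in the rise of the class II genes was not tested.

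T and NK cell markers (11 of 12 in the table) summed to 2134 to 5173 in knockout-donor and 425 to 3668 in wild-type-donor transplants, 567 to 1699 in knockout 5xFAD, 191 to 248 in wild-type 5xFAD and 631 to 1071 in normal microglia. B cell markers (6 of 10) summed to 1386 to 1950 in knockout-donor and 1631 to 2424 in wild-type-donor transplants, 1804 to 2263 in knockout 5xFAD, 1756 to 2147 in wild-type 5xFAD and 1075 to 1875 in normal microglia, so the B cell sum overlapped between transplants and 5xFAD microglia. Dendritic cell markers, without Siglech, which microglia also express, summed to 1333 to 2036 in knockout-donor and 1237 to 2277 in wild-type-donor transplants. They summed to 6204 to 13308 in knockout 5xFAD, 9878 to 11310 in wild-type 5xFAD and 16113 to 18054 in normal microglia. Fscn1 makes up most of this sum in microglia, and the lower sum in the transplants rests on it. Without Fscn1 too, a sum chosen after the values were seen, the other 10 markers came to 1093 to 1658 in knockout-donor and 829.8 to 1443 in wild-type-donor transplants. They came to 1583 to 1910 in knockout 5xFAD, 907 to 1022 in wild-type 5xFAD and 1345 to 1521 in normal microglia, and every microglia group overlapped at least 1 transplant group. Of the 12 dendritic cell markers 0 rose in wild-type-donor transplants against wild-type 5xFAD microglia, and Siglech and Fscn1 fell. Of all tested genes 13.6% rose and 14.6% fell in that comparison. Flt3, a receptor that dendritic cells depend on, had a median of 175 reads in knockout-donor and 88.1 in wild-type-donor transplants and ran from 32.2 to 111 in microglia. Of the markers in the table on these lists, including those of other brain cells, Cldn11, an oligodendrocyte gene, was the 1 marker at 0 in all libraries of a group, the knockout-donor transplants.

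**Figure D4:**
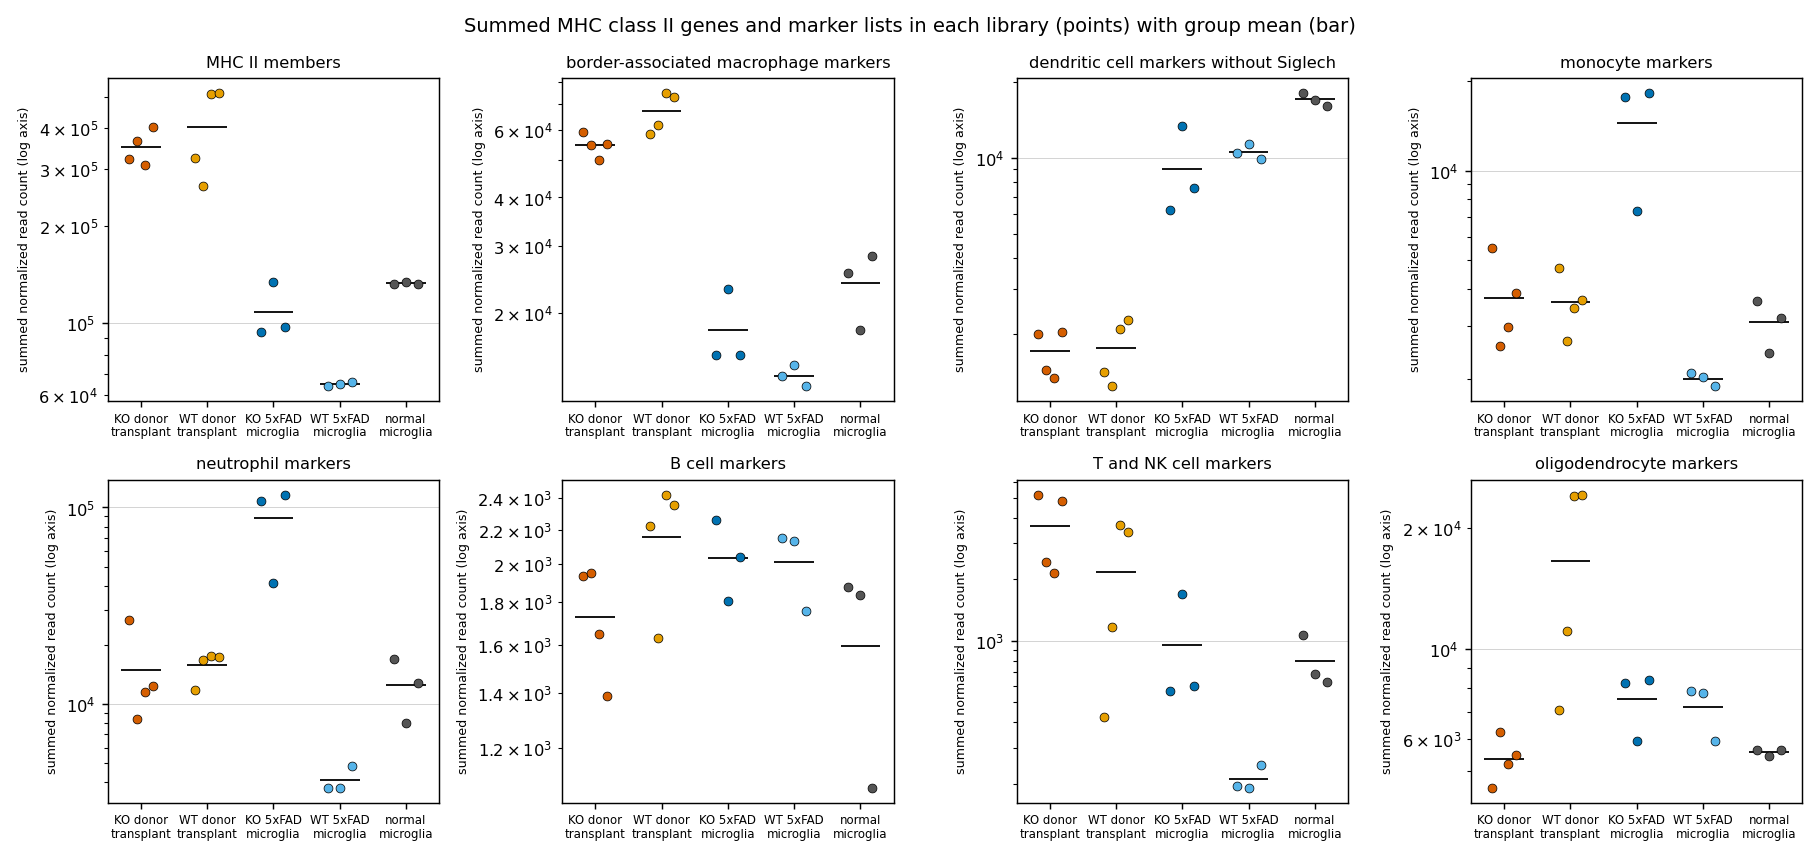
Summed normalized read counts (log axis) of the 8 class II genes and of 7 marker lists in each library (points) with the group mean (bar). The border-associated macrophage sum, most of it from Stab1, Ms4a7 and Mrc1, is highest in the transplants, the neutrophil and monocyte sums are highest in knockout 5xFAD microglia, and the oligodendrocyte sum is highest in S30 and S31.

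The genes most like the mean log2 level of H2-Aa, H2-Ab1 and H2-Eb1 across the 17 libraries, by Pearson r, were Pf4 (0.976), Ninj1 (0.972), Cd36 (0.959), Clec4n (0.959), Ms4a7 (0.956), H2-DMb2 (0.954), Ntpcr (0.953) and Tmem86a (0.952). The libraries share groups, so these values describe mostly the order of the groups. Within the members Cd74 reached 0.984, Ciita 0.93, H2-DMb1 0.889, H2-DMa 0.875 and H2-Oa -0.91. Ms4a7, a gene of macrophages, had 15783 to 21410 reads in knockout-donor and 16246 to 26888 in wild-type-donor transplants, against 680 to 1309 in knockout 5xFAD, 335 to 436 in wild-type 5xFAD and 944 to 1063 in normal microglia.

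After each group's mean was taken off, the most like genes were others, among them Mag (0.952), Cnp (0.92), Dctn2 (0.911), Timm50 (0.907) and Yipf1 (0.903). Mag and Cnp are genes of myelin. Mag had 3664 and 3526 reads in S30 and S31, against 908 and 736 in S28 and S29 and 623 to 687 in knockout-donor transplants. Not all myelin genes followed: Mbp was highest in S29, at 7042 reads against 5454 in S30 and 5373 in S31, and S29 had the lowest classical class II levels of its group. H2-Oa, at -0.91 across all libraries, stood at 0.611 within groups, and Ciita at 0.587.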

How the data were processed

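The deposited table holds 1 signal per gene and library, a normalized read count made by the authors. The submitters' processing notes name STAR 2.5.2b, HTSeq, RSEM, bcl2fastq and DESeq2 (given as version 3.17), with builds mm10 and GRCm38.p6. Counting rule and annotation: not given in the sources used here. Dividing by a step specific to each library gave whole numbers (within 0.02) for 99.985% or more of its genes, and these were taken as recovered reads. Column names give groups but outside the normal group no distinct replicate number.

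Values were analysed as log2(value + 1) with limma 3.58.1 (R 4.3.3, eBayes with trend), 1 mean per group over all 17 libraries, two-sided, Benjamini-Hochberg over 12074 genes with 10 or more in at least 3 libraries (1427 removed). The procedure was tested on simulated data. edgeR 4.0.16 (quasi-likelihood) and DESeq2 1.42.0 on recovered reads were alternatives, besides other pseudocounts, filters, scalings, library weights, averaged pairs and left-out libraries. Positions and transcript lengths are from GENCODE vM21, which matched 13498 of 13501 symbols; levels between genes are per kilobase of the longest principal transcript. Promoters are from RefSeq. The 8 members and the gene lists were chosen with earlier results of these data known. Named were all members, Trem2, up to 4 called genes per list and comparison by smallest p, and the 8 most similar genes by each measure, of which some, like some list genes, are not reported here; others, such as Lgmn as an example and values of genes that did not pass, were chosen after their values were seen.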

Additional observations from a re-analysis of the deposited data

Results flagged for a closer look

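For H2-Aa and H2-Eb1 the test of whether the knockout effect differed between transplanted cells and microglia passed as fitted, but not under every alternative. The interaction was -1.26 for H2-Aa and -1.33 for H2-Eb1 on the log2 scale by limma, with adjusted p of 0.0109 and 0.00879. H2-Aa stood at -0.02 between knockout-donor and wild-type-donor transplants and at 1.23 between knockout and wild-type 5xFAD microglia. H2-Eb1 stood at -0.06 and 1.27 in the same comparisons. With the closest library pairs averaged, the adjusted p was 0.137 for H2-Aa and 0.0838 for H2-Eb1. Without S25 and S27, which leaves only S26 in the knockout 5xFAD group, the interaction of H2-Aa was -1.32.

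In wild-type-donor transplants H2-Oa was lower in S29, at 325.22 reads, than in the other 3 libraries, at 424 to 442, a gap large for the range of the group. Chance alone gives such a gap in about 1 in 20 groups, and 16 groups were looked at. S29 also had the lowest levels of its group for the other 7 genes.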

How the results depend on the processing

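Of 72 member differences in 9 comparisons, 41 were called; 35 of these stayed called without any 1 library and 32 under every alternative, and 0 of the 41 changed sign. The counts of called members changed by more than 1.5 times only as follows. Library weights called 7 members in wild-type 5xFAD against normal microglia (4 as reported), 3 in knockout 5xFAD against normal microglia (0), 2 between donor genotypes (0) and 7 in the interaction (2). Averaging the closest library pairs called 2 in knockout against wild-type 5xFAD microglia (5) and 0 in the interaction. A model with only the libraries compared called 3 in knockout against wild-type 5xFAD microglia. Without S25 and S27 the counts for that comparison and for the interaction also fell. That fit keeps only 1 library, S26, in the knockout 5xFAD group. DESeq2 called 5 in the interaction. Leaving out each library in turn gave 0 to 2 for knockout 5xFAD against normal microglia, 3 to 6 for knockout against wild-type 5xFAD microglia and 2 to 4 for the interaction. Differences that were not called changed sign in 13 cases. Without S25 and S27, the 1 knockout 5xFAD library left is S26. Its difference from normal microglia was 0.09 for H2-Eb1, 0.02 for Cd74, 0.03 for H2-DMb1 and 0.14 for H2-Oa. Without S30 and S31, knockout-donor minus wild-type-donor transplants was 0.40 for H2-Aa, 0.40 for H2-Ab1, 0.33 for H2-Eb1, 0.11 for Cd74, 0.21 for H2-DMa, 0.24 for H2-DMb1 and 0.15 for Ciita, the interaction of H2-DMb1 was 0.04, and wild-type-donor transplants minus normal microglia was -0.02 for H2-DMb1. Fewer libraries enter these fits. The libraries left out or averaged were picked after the data had been seen. No paired analysis was possible because the columns carry no replicate number that is shared between groups. The number of libraries limits precision, and the effect of depth was not tested. Ciita had few reads, with 62.9 to 108 in wild-type 5xFAD microglia.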
